A study of Mus musculus with 4 samples.

Results

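The Hox cluster genes were followed in single cells of E14.5 mouse hindlimb. The labels name femur and tibia as the tissue dissected, whereas the study's text speaks of the whole hindlimb, so whether the foot was included is unclear. The genes were taken as every gene whose symbol is Hox, a letter from a to d and a number, which gave 39 genes of the 32288 features measured: 11 in HoxA, 10 in HoxB, 9 in HoxC and 9 in HoxD. The rule reads the symbol only.

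All embryos carried Gli1CreER/+, R26LSL-tdTom/+ and TigreTRE-p21/+, so that cells of the Gli1 lineage were marked by tdTomato (tdT) after tamoxifen. The p21 embryos (Pan-Cart-p21MOE) also carried Col2a1-rtTA, which with doxycycline drives the cell cycle inhibitor p21 in cartilage, and the control embryos lacked it. Doxycycline was given to the dams from E12.5 (1 mg/ml in water with 0.5% sucrose, and in food), tamoxifen at E13.5 (120 µg/g), and tissue was collected at E14.5. Sorting separated a tdT+ from a tdT- fraction in each of 2 collections, which gave 4 libraries. In a library, p21 and control cells differed in sex, and the sex of each genotype was swapped between collections. Cells were therefore given a condition from their sex, which yielded 8 pseudobulks (summed counts of the p21 or the control cells of a library). They came from 2 embryo pools a condition, since both fractions of a pool shared embryos, and the sources differ on the number of embryos in a pool (the methods name a single p21 female, the study's text more than one embryo a sample), so the p-values below measure the spread between these sums and less than that between animals.

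Hox genes encode homeodomain transcription factors that lie in 4 clusters on different chromosomes, and genes of the same number (a paralog group) descend from a shared ancestor. Their order along a cluster follows their order of expression along the body axis and, for the posterior genes of HoxA and HoxD, along the limb. In the limb, groups 9 and 10 are best known for the stylopod (thigh), group 11 for the zeugopod (shank) and group 13 for the autopod (foot). HoxC posterior genes are known as hindlimb genes, and Hox proteins bind DNA together with Pbx and Meis cofactors.

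In all, 2767 cells with a sex were used, and the pseudobulks held 2293497 to 19432720 unique molecular identifiers (UMIs). The hindlimb factors Pitx1 (146 to 218 CPM, UMIs scaled to a library of 1e+06) and Tbx4 (38.5 to 55.9 CPM) were above the forelimb factor Tbx5 (4.69 to 17.9 CPM) in all 8. WPRE, an RNA-stabilising element of the transgenes, was higher in p21 than in control cells of each library (727 against 516, 429 against 91.5, 1030 against 418 and 645 against 65.6 CPM). Transcripts of Cdkn1a, the mouse gene for p21, were at 24.4, 35.8, 34.7 and 46.9 CPM in p21 cells and at 21.1, 38.0, 22.8 and 53.8 CPM in control cells. The study states that reads of the tdTomato and p21 transgenes mapped mostly to WPRE, so Cdkn1a counts are no measure of p21 induction. Here and below, values of the 4 libraries are given in the order tdT+ and tdT- of collection 1, then tdT+ and tdT- of collection 2. A summed list of 9 muscle markers was also higher in p21 cells of each library (44.9, 354, 65.1 and 272 CPM against 22.1, 8.36, 29.0 and 84.7 CPM). A list of 8 immune markers stood at 131 CPM in the control tdT- cells of collection 1 and between 6.30 and 33.4 CPM in the other pseudobulks. The part of either list in the results below was not tested.

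The 4 clusters lay on chromosomes 6 (HoxA, 52155590 to 52260880, minus strand), 11 (HoxB, 96194316 to 96368256, plus strand), 15 (HoxC, 102921103 to 103036852, plus strand) and 2 (HoxD, 74668310 to 74765142, plus strand) of the mouse genome build GRCm38. A promoter (250 bases before to 50 after a start) was held in the RefSeq table for 22 of the 39 genes. Those of Hoxa10 and Hoxd10 are shown because Hoxa10 was the most abundant Hox transcript and Hoxd10, of the same group, was at 2.73 CPM on average. No promoter was held for Hoxc10, the other member of group 10. Hoxa10 has a pair of annotated starts, with promoters at chr6:52240805-52241104 (upstream) and chr6:52234890-52235189 (downstream) on the minus strand, and that of Hoxd10 at chr2:74691641-74691940 on the plus strand (GRCm38.p6). Capitals mark TTTAT or its reverse complement ATAAA, a core that posterior Hox proteins are known to prefer.
Hoxa10 upstream: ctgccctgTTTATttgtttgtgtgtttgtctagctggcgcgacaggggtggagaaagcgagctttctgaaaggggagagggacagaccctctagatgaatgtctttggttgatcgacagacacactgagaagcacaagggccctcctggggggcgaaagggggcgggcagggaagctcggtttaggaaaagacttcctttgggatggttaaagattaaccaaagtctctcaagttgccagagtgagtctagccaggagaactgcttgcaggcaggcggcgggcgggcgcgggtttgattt
Hoxa10 downstream: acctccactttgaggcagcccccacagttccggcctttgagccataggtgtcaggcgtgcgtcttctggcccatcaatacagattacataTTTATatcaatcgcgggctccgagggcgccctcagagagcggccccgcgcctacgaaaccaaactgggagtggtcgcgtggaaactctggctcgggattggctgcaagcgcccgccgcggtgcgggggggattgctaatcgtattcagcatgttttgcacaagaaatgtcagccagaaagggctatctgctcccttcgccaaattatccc
Hoxd10: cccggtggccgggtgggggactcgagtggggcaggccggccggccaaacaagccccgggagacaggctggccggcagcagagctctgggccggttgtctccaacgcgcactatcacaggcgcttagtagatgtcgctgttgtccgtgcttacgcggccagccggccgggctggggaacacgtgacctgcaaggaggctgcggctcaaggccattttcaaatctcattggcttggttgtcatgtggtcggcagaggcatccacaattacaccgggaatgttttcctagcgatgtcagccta
The motif occurred once in each Hoxa10 promoter and not in that of Hoxd10, and 9 of the 24 Hox promoters (37.5%) held it beside 40.0% of all 32851 promoters of the table. The downstream Hoxa10 promoter held 21 CG pairs and the upstream one 12, whereas the Hoxd10 promoter held 22 (the median of all promoters was 7). Counts of 3′ tags do not tell the Hoxa10 starts apart.

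Hox transcripts made up 471 ± 47.0 CPM of all cells (SD, n = 8 pseudobulks), and posterior HoxA and HoxC genes held most of them. HoxA supplied 64.0% ± 4.46 of Hox UMIs, HoxC 30.6% ± 3.81, HoxD 4.57% ± 1.3 and HoxB 0.770% ± 0.413. By paralog group, group 10 held 54.7% ± 2.83, group 9 16.5% ± 0.865, group 11 8.39% ± 1.33, group 5 4.65% ± 0.630 and group 3 4.28% ± 0.756, whereas group 12 held 0.0211% ± 0.0359 and group 13 0.418% ± 0.165. Transcripts of the foot-associated group 13 were near the lower end, in tissue for which the sources differ on whether the foot was included. Because 3′ UMIs count transcript ends, levels were not divided by length, and they compare genes only as far as their 3′ ends are captured alike.

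Of the 39 genes, 9 were at 10 CPM or more on average (4 in HoxA and 5 in HoxC), 10 between 1 and 10 CPM, and 20 under 1 CPM, which took in all 10 HoxB genes. No UMI was found for Hoxb1 or Hoxb13. The filter on low counts passed 19 genes in all cells (8 HoxA, 7 HoxC and 4 HoxD), 15 in chondrocytes and 18 in the other cells, and no HoxB gene in any of them.

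**Figure D1:**
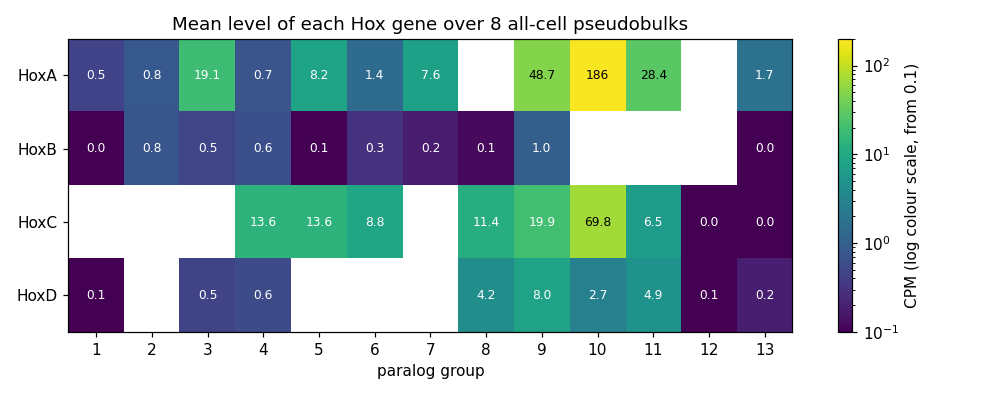
Mean level of each of the 39 Hox genes over the 8 all-cell pseudobulks (CPM, printed in each square, log colour scale), with the paralog group on the x axis and the cluster on the y axis; empty squares have no gene. Hoxa10 and Hoxc10 in group 10 are the brightest squares, and the HoxB row and group 13 are dark.

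Hoxa10 was the most abundant member. Its level was 225, 171, 235 and 174 CPM in control cells and 201, 176, 159 and 143 CPM in p21 cells of the 4 libraries (mean 186 ± 32.2, SD, n = 8), with 12426 UMIs in all, and 80.3% of cells held at least 1. The condition ranges overlapped. Hoxc10, its paralog, was at 74.4, 59.3, 72.5 and 56.9 CPM in control and 67.3, 82.0, 78.7 and 67.4 CPM in p21 cells (mean 69.8 ± 8.82), and 61.3% of cells held a UMI. Hoxc10 overlaps the annotated span of Hoxc5 on the same strand, and Hoxc6, Hoxc8 and Hoxc9 lie within it, so the split of reads among these genes is uncertain. The last paralog, Hoxd10, reached 1.59 to 4.59 CPM.

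Hoxa9, which like Hoxa10 is a posterior HoxA gene, stood at 48.7 ± 8.40 CPM (39.1 to 59.7 over the pseudobulks). Hoxc9 was at 19.9 ± 4.50 CPM and Hoxd9 at 7.98 ± 2.31 CPM. Group 11, needed with its paralogs to form the shank, was led by Hoxa11. In control cells Hoxa11 stood at 26.2, 28.9, 43.4 and 26.6 CPM and in p21 cells at 32.7, 29.2, 22.3 and 18.0 CPM. Its overlapping antisense transcript Hoxa11os was at 11.9 to 30.6 CPM. Whether the counting used strand is not given in the sources used here, so the share of each in the other's counts cannot be told apart. Hoxc11 was at 6.47 ± 1.90 CPM and Hoxd11 at 4.90 ± 2.64 CPM. Hoxd11 varied most of these, from 0.804 CPM in p21 tdT+ cells of collection 1 to 9.04 CPM in control cells of the same library.

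Anterior genes of both main clusters were also found. Hoxa3 was at 19.1 ± 2.94 CPM, and its annotated span covers Hoxa4, Hoxa5 and Hoxa6 on the same strand. Hoxc4 (13.6 ± 2.89 CPM), Hoxc5 (13.6 ± 2.65 CPM), Hoxc8 (11.4 ± 3.02 CPM) and Hoxc6 (8.85 ± 2.72 CPM) filled the next ranks, and Hoxa5 (8.20 ± 2.55 CPM) came after them. Of group 13, Hoxa13 had 124 UMIs (1.71 ± 0.517 CPM), Hoxd13 12, Hoxc13 4 and Hoxb13 none, and the 140 UMIs of the group lay in 107 of the 2767 cells. A count of 0 allows up to 3 UMIs.

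Cells had been grouped into 16 clusters without using the Hox genes, and 8 of these were named from markers. With 4 libraries as the unit, the summed Hox level was highest in the interzone or articular cluster (745 ± 61.2 CPM, SD, n = 4 libraries; interzone cells form the future joint) and lowest, among the 11 clusters with 10 or more cells in at least 3 libraries, in hypertrophic chondrocytes (293 ± 43.8 CPM, n = 4). The interzone range, 663 to 811 CPM, lay above the next one, that of connective tissue (521 to 595 CPM). From there to chondrocytes (430 ± 34.3 CPM) each neighbour in the order overlapped the next, and a gap followed before tenocytes (349 ± 14.9 CPM, n = 3). Of the remaining clusters, muscle (31 cells, 84% of them from a single library) was lowest at 186 CPM. These levels are descriptions, since the clusters were made from the same cells. The names also depend on the resolution of the clustering, which was 1 here. At a resolution of 0.5 no cluster was named connective tissue or plain chondrocyte (neither resting nor hypertrophic). The tenocyte and resting chondrocyte clusters then held 484 and 691 cells, against 124 and 375 here. Contrasts among these 4 kinds, here and below, were made at resolution 1 only.

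Hoxa10, which made up 186 of the 471 CPM in all cells and so a large part of the sum, shared the ends of this order. It was at 346, 356, 319 and 266 CPM in interzone or articular cells, at 296, 202, 209 and 246 CPM in resting chondrocytes, and at 74.2, 47.1, 67.7 and 67.2 CPM in hypertrophic chondrocytes. The hypertrophic cluster was led by Col10a1 and had Ihh among its leading genes. Cells at an earlier step of the cartilage programme were not told apart there. The hypertrophic range lay below that of every other of the 11 clusters. Osteoprogenitors (226 ± 8.63 CPM) and connective tissue (234 ± 26.5 CPM) did not separate from resting chondrocytes (239 ± 43.1 CPM), and the chondrocyte cluster held 119 ± 8.26 CPM. In control cells alone Hoxa10 was at 384 CPM in the interzone cluster, 290 CPM in resting and 58.2 CPM in hypertrophic chondrocytes. With every cell thinned to 10000 UMIs, a Hoxa10 UMI was found in 85.5% of interzone cells (95% exact interval 75.6 to 92.5), in 43.9% of hypertrophic chondrocytes (36.3 to 51.6) and in 26.9% of muscle cells (11.6 to 47.8). Without thinning the shares were 88.8%, 71.8% and 64.5%, and 22 of 98, 35 of 206 and 5 of 31 cells were too shallow to be thinned. Median depths before thinning were 18839 UMIs in interzone cells and 31950 in hypertrophic chondrocytes. Intervals cover counting error only.

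Other members took other orders. Hoxa11 was highest in the same interzone cluster (76.1, 45.3, 115 and 62.5 CPM) and lowest in tenocytes (2.99, 4.23 and 8.49 CPM in 3 libraries), a lower level than that of any of the 4 interzone values, although the next neighbours overlapped throughout. Hoxc10 instead was high in tenocytes (99.8 ± 10.1 CPM, n = 3), in connective tissue (91.0 ± 11.7 CPM, n = 4) and in a pair of unnamed clusters, 1 led by Nkain2 and Isl1 and 1 by Crabp1. It was low in chondrocytes (41.7 ± 13 CPM) and hypertrophic chondrocytes (27.8 ± 12.8 CPM). Tenocytes thus held Hoxc10 and Hoxa10 at about the same level (99.8 and 106 CPM), whereas interzone cells held 66.4 CPM of the former and 322 CPM of the latter.

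Hoxc9 had the highest mean in hypertrophic chondrocytes (37.6, 20.6, 46.5 and 45.7 CPM), where Hoxa10 was lowest, but its range overlapped that of the clusters next to it. Hoxa3 led in chondrocytes (44.0 ± 10.9 CPM) and interzone cells (38.4 ± 13.2 CPM) and was at 5.08 ± 2.72 CPM in tenocytes. Hoxc11 was highest in connective tissue, where its range (10.3 to 22.7 CPM) lay above that of the next cluster (5.15 to 9 CPM). Hoxd11 was highest there too (12.9 ± 5.10 CPM), and at 0.913 ± 0.903 CPM in osteoprogenitors. Hoxa13 reached its highest mean in interzone cells at 4.74 ± 3.86 CPM, from 0 to 8.30 CPM over the libraries.

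**Figure D2:**
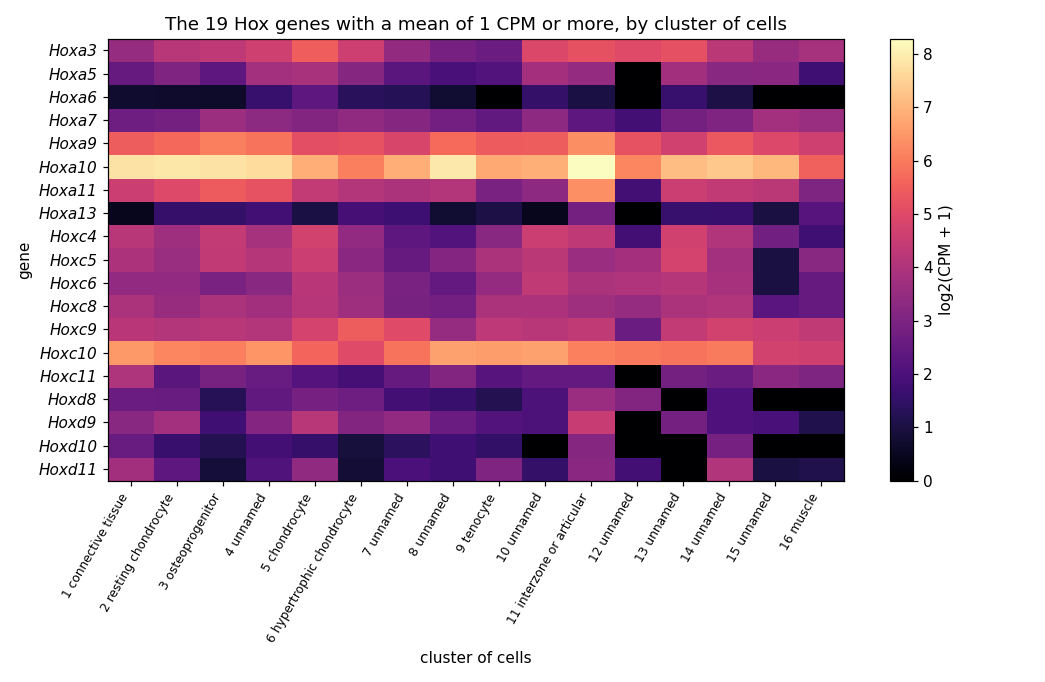
Level (colour, log2 of CPM plus 1) of the 19 Hox genes with a mean of at least 1 CPM (y axis) in the 16 clusters of cells (x axis), all libraries summed. The Hoxa10 row is brightest in interzone or articular cells and darkest in muscle and hypertrophic chondrocytes, and the Hoxc10 row stays bright in tenocytes.

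**Figure D3:**
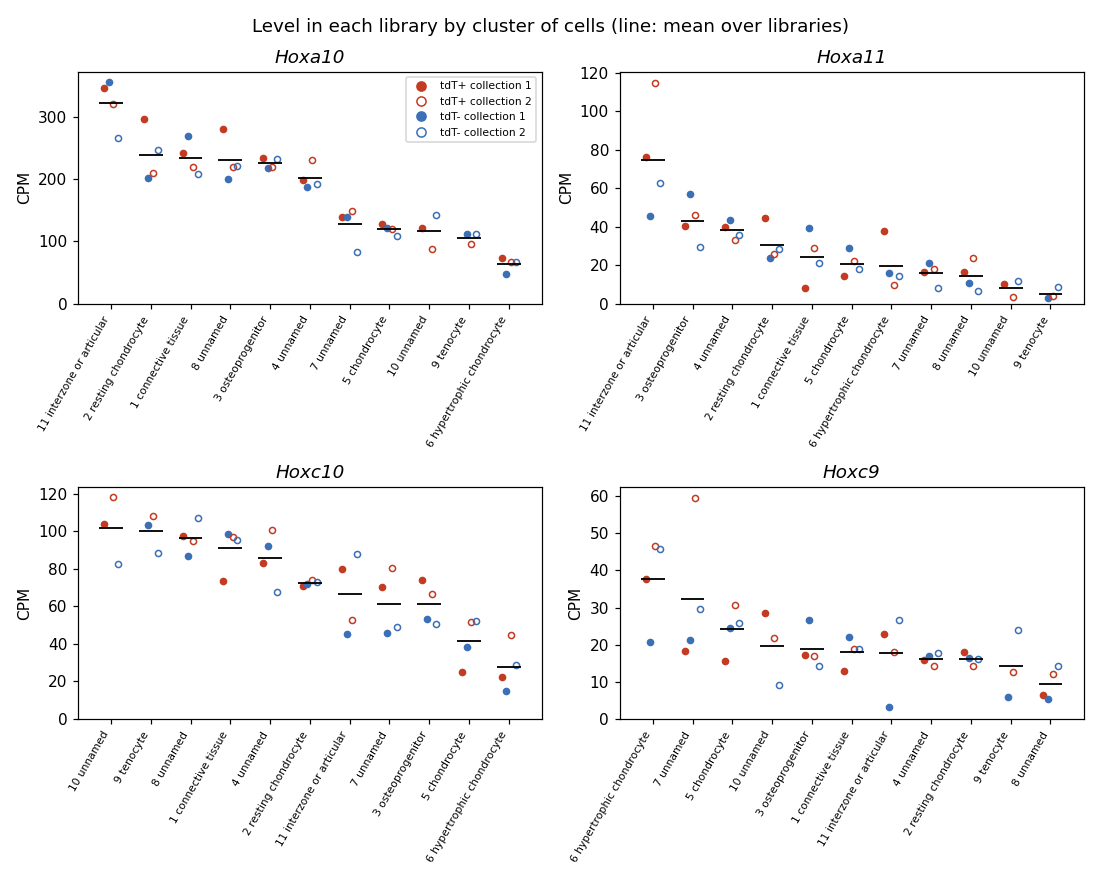
Levels of Hoxa10, Hoxa11, Hoxc10 and Hoxc9 (y axis, CPM) in each library with 10 or more cells (points; red tdT+, blue tdT-, filled collection 1, open collection 2) by cluster of cells, ordered by the mean over libraries (line). Hypertrophic chondrocytes come last for Hoxa10 and first for Hoxc9.

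Genes were also compared in the same cells at the fixed depth of 10000 UMIs (2160 cells). Hoxd8 and Hoxd9 were found together in 31 cells where 6.69 would be met if they were spread independently (a ratio of 4.63, and between 3.35 and 6.44 in the single libraries). Hoxc4 and Hoxc5 shared 61 cells beside 31.6 (a ratio of 1.93, from 1.67 to 2.00). Hoxa10 and Hoxa11 shared 351 cells beside 290 (1.21, from 1.11 to 1.25), and Hoxa10 and Hoxc10 725 beside 697 (1.04, from 0.982 to 1.09). Hoxa11 and Hoxc10 shared 158 cells beside 184 (0.858, from 0.517 to 1.04). Overlapping transcripts and the make-up of clusters enter these ratios, which are descriptions of chosen pairs.

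HoxB transcripts were few and lay in few cells. Their 311 UMIs came from 152 of 2767 cells, and 55.9% of them from the 39 cells that held 2 or more HoxB genes. Connective tissue held 39.5% of HoxB UMIs beside 15.1% of all UMIs, and 20 of the 39 cells. These cells were found in all 8 pseudobulks, but most lay in the p21 cells of collection 2. There they were 10 of 664 tdT+ and 18 of 784 tdT- cells. Each other pseudobulk, of 98 to 282 cells, held 1 to 3. Within connective tissue, the cells with 2 or more HoxB genes held Hoxa10 at 96.0 CPM against 232 CPM in the other 359 cells, Hoxa11 at 5.65 against 23.7 CPM, and no UMI of Hoxd11 against 13.2 CPM. The hindlimb factor Pitx1 was at 80.5 against 269 CPM and Tbx4 at 5.65 against 45.2 CPM, so that Hoxa11 and Tbx4 rested on 4 UMIs each in the 20 cells. Meis2, a cofactor gene known for the proximal limb, was at 391 against 198 CPM, Hoxc10 at 138 against 88.1 CPM, and Sox10, a gene of neural crest derivatives, at 36.7 against 0.502 CPM. The 7 hypertrophic chondrocytes with 2 or more HoxB genes held no UMI of Meis2, Hoxc10 or Sox10, against 31.1, 31.8 and 11.5 CPM in the other 199. Tbx4 was at 21.03 CPM there, from 5 UMIs, against 9.76 CPM. The cut on HoxB genes was made after their values were seen, the 20 cells are no replicates, and their median depth was 36811 UMIs against 25559, so these values carry no test.

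p21 and control cells were compared next, in all cells, in chondrocytes and in the other cells. The other cells were all clusters not named as a chondrocyte kind, so they are not only tissue around the cartilage. Among them, the unnamed clusters 7 (200 cells) and 12 (79 cells) had 5 and 7 of 15 chondrocyte markers above the rest. Cluster 7 had its highest mean log2 fold, 1.69, for the immune list, with 1 of 8 markers above the rest. Cluster 12 held p21 cells only, 96.2% from 1 library, at a median of 3176 UMIs. Unnamed cluster 15 (49 cells) had 5 of 7 hypertrophic and 5 of 7 osteoprogenitor markers above. Cluster 4 (276 cells), led by histone and mitosis genes, had 2 of 15 chondrocyte markers above. With edgeR (quasi-likelihood test, adjusted p under 0.05) no Hox gene was called among the 19, 15 and 18 tested in all cells (0.0269% of all genes were called), in chondrocytes (0.148%) or in the other cells (0.0142%). At an unadjusted p under 0.05 there were 4, 5 and 2 Hox genes, beside 7.08%, 9.32% and 6.84% of all genes. DESeq2 called 0, 1 and 0 of them, and 51 of 14880, 77 of 11525 and 11 of 14117 genes in all. The median log2 fold change (p21 minus control) of the Hox genes tested was 0.09 in all cells, 0.44 in chondrocytes and -0.08 in the other cells, beside -0.00247, -0.00262 and -0.00139 over all genes.

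The gene closest to the threshold was Hoxc9 in chondrocytes. Its TMM-scaled level was 27.9, 25.3, 35.5 and 38.4 CPM in p21 cells and 15.9, 17.3, 11.4 and 21.1 CPM in control cells, so it was higher in p21 cells of 4 of 4 libraries, with no overlap of the groups. The log2 fold change was 1.02 (SE 0.196, adjusted p = 0.0773). DESeq2 called it. Hoxc9 was highest in hypertrophic chondrocytes, which were 19.6%, 29.7%, 15.5% and 34.2% of p21 chondrocytes and 12.9%, 18.6%, 13.8% and 42.5% of control chondrocytes, and the part of these shares in the result was not tested. Within hypertrophic cells Hoxc9 was at 57.7, 25.5, 58.2 and 53.8 CPM in p21 cells and at 17.3, 21.6 and 26.2 CPM in control cells of the 3 libraries with at least 10 of them. Within resting chondrocytes it was at 17.6, 23.2, 17.5 and 19.0 CPM in p21 and 18.5, 12.7, 8.02 and 7.35 CPM in control cells. Resting ranges overlapped, and in tdT+ cells of collection 1 the control value was the higher. These values rested on few cells. A library held 11 to 82 p21 and 11 to 34 control hypertrophic cells, and 21 to 85 p21 and 23 to 53 control resting cells. In the plain chondrocyte cluster the ranges overlapped, at 24.2 ± 14.2 CPM in p21 cells (SD, n = 3, 8.48 to 36.0) and 18.2 ± 10.9 CPM in control cells (SD, n = 4, 2.48 to 27.2). In other cells the Hoxc9 fold change was not at an unadjusted p under 0.05.

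Hoxa7 in chondrocytes stood, TMM-scaled, at 10.5, 10.1, 9.98 and 8.44 CPM in p21 and 6.37, 5.18, 4.65 and 4.78 CPM in control cells (log2 fold change 0.87, SE 0.265, adjusted p = 0.280 by edgeR). Its groups did not overlap, but each sum rested on 8 to 56 UMIs. Hoxa10 in chondrocytes lay the other way, at 157, 129, 128 and 118 CPM in p21 and 240, 148, 191 and 139 CPM in control cells. It was lower in p21 cells of 4 of 4 libraries (log2 fold change -0.43, SE 0.121, adjusted p = 0.239 by edgeR), and the ranges overlapped. By kind, Hoxa10 was at 201 ± 32.2 CPM in p21 and 294 ± 65.1 CPM in control resting chondrocytes. The plain cluster held 115 ± 10.9 and 134 ± 34.7 CPM, and hypertrophic cells 68.0 ± 9.20 and 54.0 ± 10.5 CPM, the other way. Ranges overlapped in each kind. The part of the kind shares in the Hoxa10 result was not tested. In all cells Hoxa10 had a log2 fold change of -0.26 (adjusted p = 0.518) and Hoxc4 one of 0.43 (15.6 ± 2.16 against 11.7 ± 1.16 CPM, SD, n = 4 each, adjusted p = 0.330), the latter with no overlap of the groups. Hoxd11 in the other cells was at 0.174, 3.34, 2.07 and 7.68 CPM in p21 and 9.87, 4.58, 6.78 and 8.69 CPM in control cells (log2 fold change -1.28, SE 0.576, adjusted p = 0.727).

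As a share of Hox UMIs in all cells, HoxC was at 29.7%, 31.8%, 37.0% and 35.5% in p21 and 27.7%, 27.7%, 26.7% and 29.0% in control cells. The p21 values lay above the control values in all 4 libraries, with the lowest p21 value above the highest control one. In chondrocytes alone the ranges overlapped, at 26.7% to 38.2% in p21 and 22.1% to 27.7% in control cells. In the other cells they did not, at 30.6% to 36.4% and 26.8% to 29.7%. The part of cell make-up in these shares was not tested. In all cells HoxA took 67.7%, 63.3%, 57.7% and 56.9% of Hox UMIs in p21 and 66.2%, 66.4%, 68.9% and 65.1% in control cells. The summed Hox level was 464 ± 33.1 CPM in p21 and 478 ± 62.7 CPM in control cells (SD, n = 4 each). In p21 cells of collection 2 HoxC stood at 35.5% and 37.0%, and in those of collection 1 at 29.7% and 31.8%; the p21 cells of collection 2 are female, and from a single embryo if the methods hold, so embryo, sex and collection cannot be told apart within them.

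**Figure D4:**
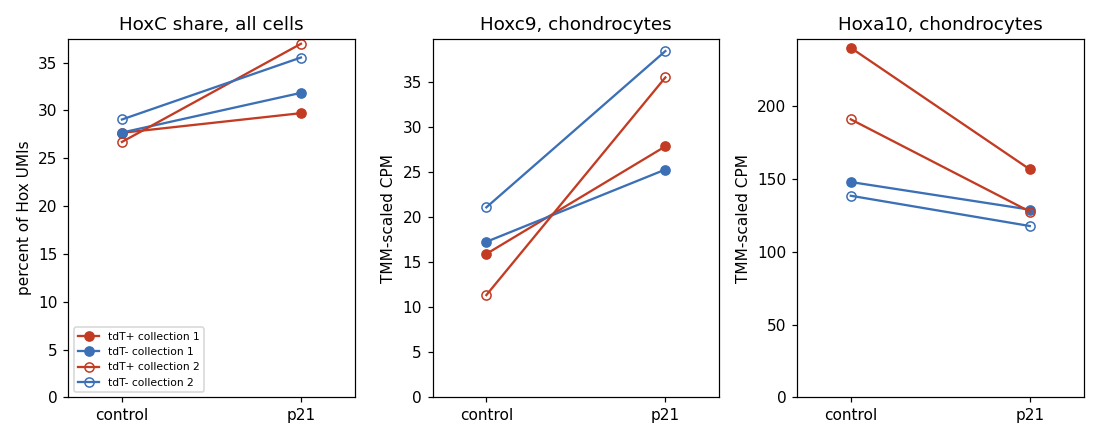
HoxC share of Hox UMIs in all cells (left, percent), and the TMM-scaled level of Hoxc9 (middle) and Hoxa10 (right) in chondrocytes (CPM), in control and p21 cells; each line joins the cells of 1 library (red tdT+, blue tdT-, filled collection 1, open collection 2). The first and second measures are higher in p21 cells of each library and Hoxa10 is lower.

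tdT+ and tdT- cells were then compared, to see whether the Gli1 lineage differed in Hox levels. No Hox gene passed the test in all cells (2.16% of all genes were called), in chondrocytes (0.026%) or in the other cells (1.53%). At an unadjusted p under 0.05 there were 5, 2 and 2 Hox genes, beside 18.2%, 6.27% and 16.6% of all genes, and DESeq2 called 0 in each, beside 658 of 14880, 27 of 11525 and 471 of 14117 genes in all. The TMM-scaled level of Hoxa10 in all cells was 221 and 234 CPM in tdT+ and 179 and 176 CPM in tdT- control cells. In p21 cells it was 194 and 161 CPM in tdT+ and 177 and 145 CPM in tdT- cells. Hoxa10 was thus higher in the tdT+ cells of 4 of 4 embryo pools, with overlapping ranges (log2 fold change 0.25, SE 0.088, adjusted p = 0.165 by edgeR). Hoxc5 stood at 15.5 ± 0.301 CPM in tdT+ and 11.7 ± 1.86 CPM in tdT- cells (n = 4 each, log2 fold change 0.39, adjusted p = 0.135), with no overlap. Hoxa9 was at 53.4 ± 7.40 against 44.0 ± 3.52 CPM (adjusted p = 0.202), Hoxc11 at 7.62 ± 1.82 against 5.30 ± 0.718 CPM (adjusted p = 0.220) and Hoxc4 at 15 ± 2.76 against 12.3 ± 1.97 CPM (adjusted p = 0.227). The summed Hox level was 507 ± 35.4 CPM in tdT+ and 435 ± 21.7 CPM in tdT- cells, with overlapping ranges (459 to 543 and 416 to 466 CPM). The fractions also differed in cell make-up. Hypertrophic chondrocytes, which were low in Hoxa10, were 3.45% to 4.72% of cells in tdT+ and 7.31% to 15.9% in tdT- pseudobulks. The part of this make-up in the all-cell differences was not tested.

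**Figure D5:**
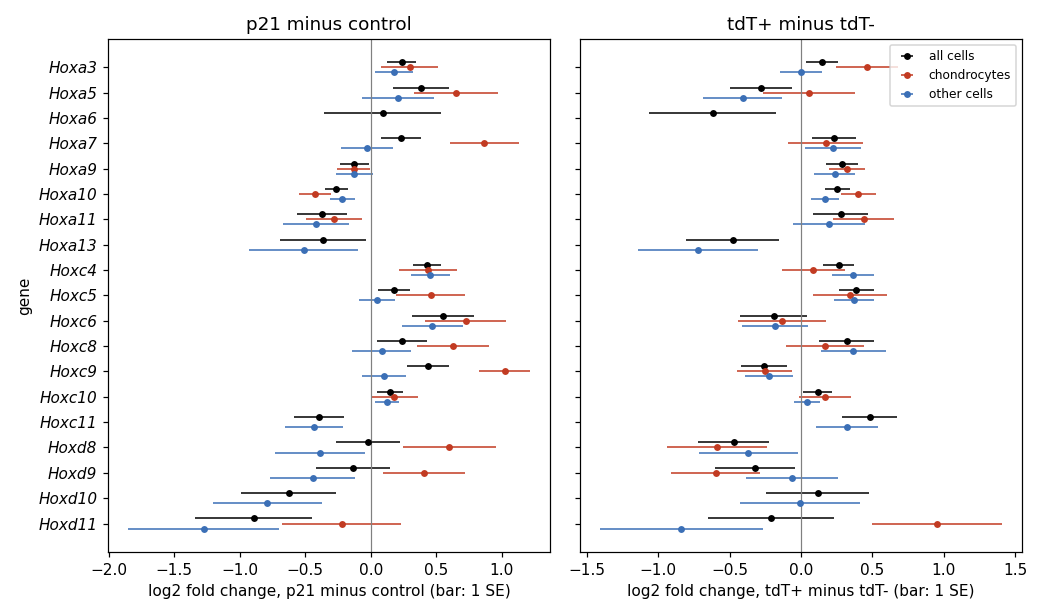
Log2 fold changes of the Hox genes tested (x axis, bars 1 SE) for p21 minus control (left) and tdT+ minus tdT- (right), in all cells (black), chondrocytes (red) and other cells (blue). Hoxc9 in chondrocytes lies farthest to the right in the p21 panel at 1.02, and Hoxd11 in other cells farthest to the left at -1.28.

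Whether the p21 effect differed between the fractions was tested as an interaction. Of 20 Hox genes in all cells and 15 in chondrocytes none passed (0% and 0.00833% of all genes were called), none had an unadjusted p under 0.05 in edgeR, and DESeq2 called none.

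The other lists gave no call in any of the comparisons. Their counts at an unadjusted p under 0.05 stand beside 7.08% of all genes for p21 and 18.2% for tdT in all cells. Of 9 cofactor genes (Pbx, Meis and Pknox), 9 were tested in all cells and 1 had an unadjusted p under 0.05 for p21 and 2 for tdT. Of 16 limb identity and axis factors, 11 were tested, with 0 and 4. Of 12 genes beside the clusters, 7 were tested, with 1 and 1, and of 11 other transcripts of the clusters, 6, with 1 and 0. In chondrocytes, 7 cofactor genes were tested, with 3 for p21 and 0 for tdT, and 8 limb factors, with 1 and 3. Genes beside the clusters had 0 and 2 of 6 there, and other transcripts 0 and 0 of 2. The shares of all genes in chondrocytes were 9.32% and 6.27%.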

How the data were processed

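The authors made the deposited count matrices with Cell Ranger 7.2.0 on GRCm38 (mm10) plus tdTomato, CreERT2 and WPRE, per the labels and methods; values are UMI counts per gene and barcode. Use of strand and introns is not given in the sources used here.

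Of 2541 to 6455 barcodes a library (11945062 to 39435830 UMIs), those with at least 1000 UMIs, 500 genes and at most 10% mitochondrial UMIs were kept (706 to 3912). Scrublet (scanpy 1.11.5) called 1 to 3 barcodes a library, so it had not worked, and the top 5% of its scores among barcodes of at least 3000 UMIs were removed. Sex came from Xist and 4 Y-linked genes (at least 2 UMIs, 80% of them of one kind), and condition from the sex plan of the methods. Between 178 and 2747 barcodes a library had no sex and 40 to 132 were mixed, and these entered no comparison of conditions. Libraries shared 0 to 3 kept barcodes a pair. Clusters (2000 variable genes without Hox genes, 30 components, resolution 1, leidenalg 0.10.2) were named from fixed markers, so names differ from those of the study. Chondrocytes are the resting, plain and hypertrophic clusters, and the other cells are all remaining clusters, named or not. Clusters with over 80% of cells from 1 library were 12, 13, 14 and 16.

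Summed counts were tested with edgeR 4.0.16 (TMM, filterByExpr, quasi-likelihood, Benjamini-Hochberg adjustment over all genes, threshold 0.05) under R 4.3.3, with fraction as a term for p21 and condition for tdT. SE is the fold change divided by the root of F. Levels given with a fold change or an adjusted p, and those flagged below, are TMM-scaled CPM. Summed levels, levels by cluster or kind and all others are CPM without that scaling. DESeq2 1.42.0, no filter, other cell cuts, blocks and left-out pseudobulks were alternatives. The scripts were tested on simulated data. Promoters came from RefSeq and gene positions from GENCODE M21.

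Collection numbers mark shared collections, and p21 and control cells of a library share a reaction, so the numbers pair the samples. The values printed come from fits without that block, and the blocked fits were alternatives. Deviations of the p21 and control sums of a library from their condition means correlated at 0.250, 0.0628, 0.0415 and 0.278 over 15435 genes. Those of the tdT+ and tdT- sums of an embryo pool from their fraction means correlated at 0.143, 0.0632, 0.0820 and 0.280. The former still hold the tdT difference and the latter the p21 difference, so neither measures the pairing alone.

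Members and lists were chosen with earlier results of these data known. Genes named were the 10 with the highest mean, those called, and groups 11 and 13; others were named after their values were seen.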

Additional observations from a re-analysis of the deposited data

Results flagged for a closer look

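Single pseudobulks stood far from the rest of their group in 12 of 152 groups checked, and those flagged were groups of 4. About 1 in 20 independent groups would be flagged by chance. The groups here share pseudobulks and cells, so their number flagged cannot be set against that rate. The p21 tdT- cells of collection 2 were lowest in Hoxa10 among tdT- pseudobulks, at 145 CPM in all cells and 160 CPM in other cells, and highest in Hoxa13 among p21 pseudobulks in all cells at 2.29 CPM. The p21 tdT+ cells of collection 1 were highest among p21 pseudobulks in Hoxc11 in all cells (7.36 CPM), in Hoxa11 in chondrocytes (34.2 CPM) and in Hoxc4 in other cells (19.5 CPM). The control tdT+ cells of collection 2 were highest among tdT+ pseudobulks in Hoxa13, at 2.43 CPM in all cells and 2.75 CPM in other cells. The control tdT- cells of collection 2 were highest among tdT- pseudobulks in Hoxc11 in all cells (6.37 CPM). The control tdT- cells of collection 1 were lowest in Hoxa3 (14.4 CPM) and highest in Hoxa13 (2.62 CPM) among tdT- pseudobulks of other cells. The p21 tdT+ cells of collection 2 were highest in Hoxc6 among tdT+ pseudobulks of other cells (12.3 CPM).

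Ambient RNA (RNA from outside the cell) was not removed here, whereas the study used CellBender for this, and its part in the low levels above was not tested. Barcodes under 1000 UMIs, which entered no comparison, also carried Hox transcripts. Their summed level was 442, 317, 331 and 266 CPM in the tdT+ and tdT- libraries of collection 1 and then of collection 2, and Hoxa10 was at 225, 143, 147 and 97.6 CPM.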

How the results depend on the processing

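Of 168 alternatives to 12 results, 162 left the result where it was. Of the 168, 121 bore on counts of genes called, which have no direction. Only the chondrocyte minus other cell difference could turn its sign, and it did not. Leaving out 1 of 8 pseudobulks cannot shift a mean by the SD used as the cut. Those alternatives to the descriptive results were thus bound to leave them in place. Without the filter on low counts, 2 Hox genes were called for p21 in all cells (Hoxd11 and Hoxc9), 1 in chondrocytes (Hoxc9) and 1 in other cells (Hoxd11), and 1 for tdT in all cells (Hoxa10), where these fits called 460 of 26094, 279 of 23896, 417 of 25320 and 1700 of 26094 genes in all. DESeq2 called 1 for p21 in chondrocytes (Hoxc9), among 77 of 11525 genes. Leaving out 1 pseudobulk gave 0 to 2 calls for tdT in all cells. The 2 calls (Hoxa9 and Hoxa10) came without the p21 tdT+ cells of collection 2, where 856 of 15198 genes were called against 321 of 14880 with them. The cause was not tested. With the replicate block (library for p21, embryo pool for tdT, collection for the interaction) the paired fits called 0 Hox genes in each comparison, so the block changed no call. Without the clusters held over 80% by 1 library, an alternative chosen after seeing the data, 0 were called. The chondrocyte minus other cell difference in the summed Hox level was -0.25 ± 0.24 (log2, SD, n = 8), and -0.15 with all kept cells. Low counts limit HoxB, group 12 and group 13, most of whose genes could not be tested.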
